A study of Homo sapiens with 32 samples.

Results

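The genes examined here encode the cofilin pathway and its substrate, actin, and were chosen by name: CFL1, CFL2, DSTN, LIMK1, LIMK2, SSH1, SSH2, ACTB and ACTG1. Their members are the called m6A peaks that overlap a fixed hg19 interval for each of the 9 genes, 232 of the 424904 peaks listed in all. The cells were PANC-1, a long-established line from a human pancreatic ductal carcinoma. RNA fragments carrying N6-methyladenosine (m6A) were pulled down with an antibody and sequenced beside input RNA. The groups were cells labelled KO CFL1, cells labelled KO METTL3 and cells labelled Control, each with 2 antibody samples and 2 inputs of total RNA. The names of the peaks show 2 libraries per group, called here CFL1 knockout 3 and 5, METTL3 knockout 3 and 5, and control 1 and 2. In the knockouts these names include the letters si, whereas the labels say knockout, which was followed. The labels do not say how the knockouts were made, whether a group is 1 clone, or whether its libraries came from separate cultures. The spread between libraries may therefore be technical. The other 20 of the 32 samples were not analysed here.

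The 9 genes held 27 and 19 peaks in CFL1 knockout 3 and 5, 25 and 30 in METTL3 knockout 3 and 5, and 70 and 61 in control 1 and 2. The libraries listed 63859 to 79467 peaks in all, and the read depth behind them is unknown. The peak caller gives each peak a fold, the enrichment at its summit over the local background, and a −log10 q, which grows with the strength of the evidence. Both come from the authors and serve here as descriptions of a peak. Where a pair of values is given for a group, library 3 stands before 5 and control 1 before 2.

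Cofilin severs and depolymerises actin filaments, and so feeds monomers back to new filament growth in moving cells. LIM kinases switch cofilin off by phosphorylating it, and slingshot phosphatases switch it on again. METTL3 is the catalytic subunit of the complex that writes m6A on messenger RNA, a mark that is dense near stop codons and in the last exon. The title of the series ties CFL1 to m6A on super-enhancer RNA, so CFL1 is both a member here and a target of a knockout. The peak lists hold no RNA levels, and CFL1 had no peak in either control library, so they cannot show whether CFL1 was lost.

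Across the 9 genes, fewer peaks were called in both knockouts than in control. Peaks per library averaged 23.0 ± 5.66 in CFL1 knockout cells, 27.5 ± 3.54 in METTL3 knockout cells and 65.5 ± 6.36 in control (SD, n = 2 libraries each). For the CFL1 knockout the ratio to control was 0.351, and for the METTL3 knockout 0.420, while over all peaks listed it was 0.885 and 0.820. The 4 knockout values were all lower than the 2 control values. An exact two-sided permutation test of 2 against 2 libraries gave p = 0.333 for each knockout, the smallest it can give, so no such test could pass 5%. SSH2 alone held 77 of the 131 control peaks. Without SSH2 the ratios were 0.463 and 0.648, and over the 9 genes they were 0.605 and 0.721 when peaks below a −log10 q of 10 were left out. In bulk RNA, fewer cells with a modified transcript and less modified RNA per cell cannot be told apart, and input RNA levels were not analysed here.

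By gene, peak number in the CFL1 knockout lay below both control libraries in 7 of the 9 genes and above them in CFL1. In the METTL3 knockout it lay below both control libraries in 4 genes (DSTN, LIMK1, SSH1 and SSH2) and above them in CFL2 and ACTB. For scale, 21.1% of 50-kb windows with any peak lay below control in this way and 19.6% above it in the CFL1 knockout. The shares were 22.1% below and 19.9% above in the METTL3 knockout. Windows and genes differ in length, so these shares are only a rough background. In SSH1 the smaller number of peaks covered more bases in every knockout library than in either control library. In DSTN, LIMK1, LIMK2 and SSH2 every knockout library covered fewer bases than either control library. No share over all windows was computed for bases covered. Over the 18 comparisons of a gene's peak number, the exact permutation p was 0.333 in 14 and 1.0 in 4, with Benjamini-Hochberg adjusted values of 0.429 and 1.0. The plot of peaks per gene shows each library.

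**Figure D1:**
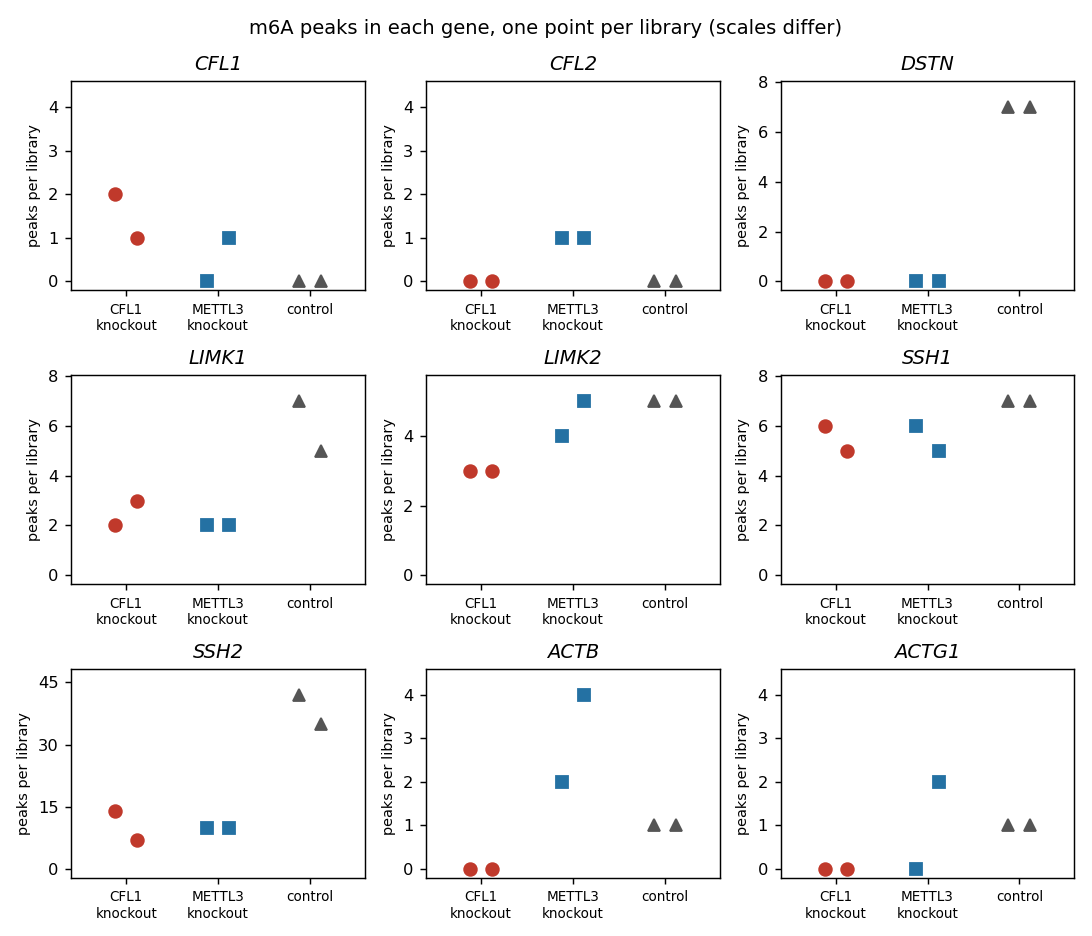
Number of m6A peaks overlapping each gene (vertical axis, count per library), in CFL1 knockout, METTL3 knockout and control libraries, one point per library. DSTN has no peak in the knockout libraries, against 7 in each control library, and SSH2 holds 7 to 14 peaks in the knockout libraries, against 42 and 35 in control.

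Of the 131 control peaks in the 9 genes, 104 had no overlapping CFL1 knockout peak and 101 had no METTL3 knockout peak. These shares were 79.4% and 77.1%, against 57.8% and 57.7% of all control peaks. Control peaks in these genes were weak, with a median −log10 q of 5.49 against 7.58 for all control peaks, and weak peaks lacked a knockout counterpart more often than strong ones in both sets. Below a −log10 q of 5, 56 of 60 control peaks in the genes had no CFL1 knockout peak, against 77.2% of all such peaks, and 58 of 60 had no METTL3 knockout peak, against 78.1%. From 5 to 10, 24 of 28 had no CFL1 knockout peak (70.0% over all peaks) and 23 of 28 no METTL3 knockout peak (70.1%). At 10 and above, 24 of 43 had no CFL1 knockout peak, or 55.8% against 34.6% of all such peaks. In the METTL3 knockout it was 20 of 43, or 46.5% against 33.6%. At that strength DSTN and SSH2 each held 9 of the peaks lost in each knockout. The other 7 genes lost 6 of 18 in CFL1 knockout cells and 2 of 18 in METTL3 knockout cells, shares of 33.3% and 11.1%.

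**Figure D2:**
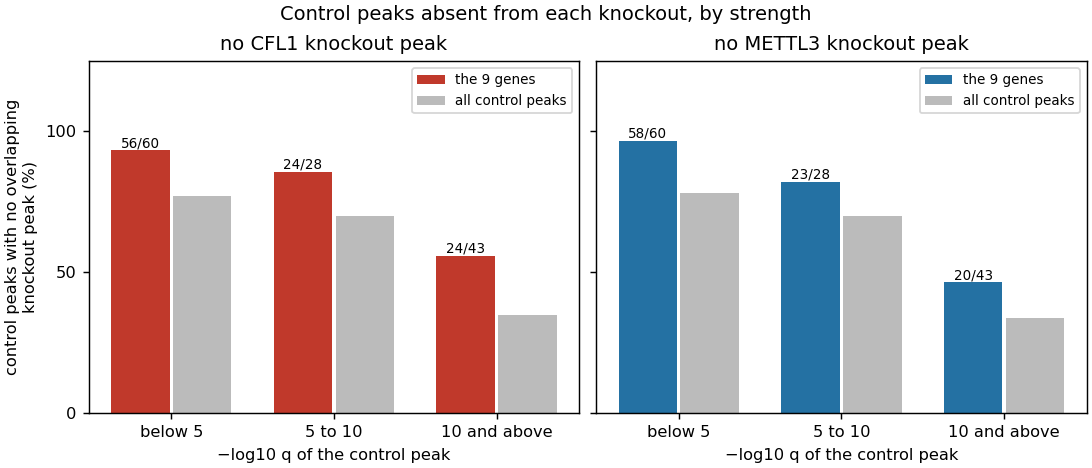
Share of control peaks with no overlapping peak in the CFL1 knockout (left) or the METTL3 knockout (right), in percent, by −log10 q of the control peak. Coloured bars are the 9 genes, with lost and total peaks above them, and grey bars are all control peaks. The coloured bar is the higher one in each of the 6 pairs.

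In the opposite direction, 22 of the 46 CFL1 knockout peaks in the genes had no control peak, a share of 47.8% against 53.2% over all CFL1 knockout peaks. For the METTL3 knockout it was 29 of 55, or 52.7% against 49.3%. Over all strengths both shares lie near those of all peaks, while by strength they lay on either side. Below a −log10 q of 5, 5 of 10 CFL1 knockout peaks (78.4% over all peaks) and 9 of 13 METTL3 knockout peaks (76.9%) had no control peak. From 5 to 10 they were 8 of 10 (67.7%) and 10 of 11 (60.9%). At 10 and above they were 9 of 26 (32.9%) and 10 of 31 (29.3%).

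Peaks of the 6 libraries were joined where they overlapped into 117 sites, numbered along the chromosome within each gene. Of these, 31 were called in both control libraries and in no knockout library, or 26.5% against 13.3% of all 174376 sites. They lay in SSH2 (19), DSTN (6), LIMK2 (3), LIMK1 (2) and SSH1 (1). Restricted to sites with a −log10 q of at least 10 in both control libraries they numbered 7. Called in all 6 libraries were 8 sites, or 6.84% against 10.8% of all sites, and all 8 lay in LIMK1, LIMK2, SSH1 and SSH2. Another 2 sites, 1 each in SSH1 and SSH2, had a peak in the 4 knockout libraries but none in control, or 1.71% against 3.63%. No site was shared by both CFL1 knockout and both control libraries and missing from the METTL3 knockout, against 0.434% of all sites. Counted by any library, 34 sites were called in knockouts only (29.1% against 45.6% of all sites), 67 in control only (57.3% against 32.6%) and 16 in both (13.7% against 21.8%). Of the 117 sites, 59 were called in 1 library only (50.4% against 48.3%). An hg19 annotation was not used here, so sites are placed by distance from the ends of the gene interval and not by exon, intron or UTR.

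Among the actin-severing proteins, no control peak of DSTN had a knockout counterpart, and CFL1 and CFL2 had no control peak. DSTN encodes destrin, the actin-depolymerising factor, a close relative of cofilin. It held no peak in any of the 4 knockout libraries and 7 peaks in each control library. The control peaks formed 8 sites between 4.54 and 25.0 kb from the gene start, and 6 of the 8 were called in both control libraries. The strongest, site 6 (chr20:17564342-17564664, 13.9 kb from the start), had a −log10 q of 47.1 in control 1 and 38.6 in control 2, with folds of 5.36 and 4.31. Site 4 (chr20:17561097-17561450) reached 25.6, site 2 (chr20:17556057-17556515) reached 24.2 and site 5 (chr20:17562681-17563008) reached 21.7. Of its 14 control peaks, 9 had a −log10 q of at least 10. The absence of CFL1 knockout peaks depends on the bounds of the gene. With 2 kb added on each side there was 1 peak in each CFL1 knockout library, none in the METTL3 knockout and still 7 in each control library. Of the 50-kb windows with at least 7 peaks in both control libraries, a number set here to the level of DSTN, 2.78% held no peak in any knockout library. The DSTN interval, at 38054 bases, is shorter than such a window and leaves less room for a knockout peak. The share is therefore not a like-for-like background.

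Beside DSTN the knockouts were not short of peaks. In the 100 kb before the gene start, CFL1 knockout 3 and 5 held 6 and 7 peaks, METTL3 knockout 3 and 5 held 7 and 1, and each control library held 1. In the 100 kb after the gene end the knockout libraries held 18, 6, 7 and 10 peaks in the same order, against 8 and 10 in control 1 and 2, so the groups overlapped.

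CFL1, the non-muscle cofilin, had 2 peaks in CFL1 knockout 3, 1 in CFL1 knockout 5, none in METTL3 knockout 3, 1 in METTL3 knockout 5 and none in control. All were of low fold. Site 2 (chr11:65623453-65623727) was called in both CFL1 knockout libraries only, with folds of 1.89 and 1.57 and a −log10 q of 12.2 and 6.89 in CFL1 knockout 3 and 5. Of all sites, 2.93% were called in both CFL1 knockout libraries only. Site 1 (chr11:65622492-65622702) was called in CFL1 knockout 3 and METTL3 knockout 5, with a −log10 q of at most 10.2.

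CFL2, the cofilin best known from muscle, held 1 site (chr14:35182674-35182889), called in both METTL3 knockout libraries and nowhere else. Its fold was 2.09 and 3.05 and its −log10 q 19.2 and 26.8 in METTL3 knockout 3 and 5. Sites called in both METTL3 knockout libraries only made up 2.65% of all sites. The 100 kb past the end of CFL2 held 1 and 0 peaks in CFL1 knockout 3 and 5, 0 and 1 in METTL3 knockout 3 and 5, and 16 and 14 in control 1 and 2. Before its start the numbers were 8 to 10 in the knockout libraries, against 10 and 12 in control.

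The LIM kinases had peaks near the gene end in all 6 libraries, while 6 of 7 control sites of LIMK1 and all 3 of LIMK2 farther inside had no knockout counterpart. Over all sites with a control peak, 56888 had no knockout peak and 38011 had one. Of the 6 in LIMK1, 4 were called in 1 control library only, while the 3 in LIMK2 were called in both. Of the 11 sites of LIMK2, 6 were called in knockouts only, and of the 10 of LIMK1, 2, where the share over all sites was 45.6%. LIMK1 and LIMK2 encode the kinases that phosphorylate and inactivate cofilin. LIMK1 had 2 and 3 peaks in CFL1 knockout 3 and 5, 2 in each METTL3 knockout library, and 7 and 5 in control 1 and 2. The lower number in the knockouts rested on weak peaks. The mean of the CFL1 knockout minus control was -3.5 peaks in all, -0.5 with a −log10 q of at least 5 only and 0 with at least 10. For the METTL3 knockout it was -4.0, -1.5 and 0. Site 10 (chr7:73535129-73535942), 1.2 kb from the gene end, was called in all 6 libraries. Its fold was 2.29 and 3.83 in CFL1 knockout cells, 4.06 and 4.14 in METTL3 knockout cells, and 2.98 and 3.18 in control, so the METTL3 knockout lay above control and the CFL1 knockout overlapped it. Its −log10 q was 21.4 and 63.9 in CFL1 knockout cells, 33.1 and 26.8 in METTL3 knockout cells, and 22.0 and 30.0 in control, where both knockouts overlapped control. Control peaks without a knockout counterpart lay 3.45 to 8.38 kb from the gene start. The strongest of them, site 7 (chr7:73506304-73506645), had a −log10 q of 9.77 in control 1 and 4.54 in control 2, and site 5 (chr7:73505201-73505545) reached 3.40.

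LIMK2 had 3 peaks in each CFL1 knockout library, 4 and 5 in METTL3 knockout 3 and 5, and 5 in each control library. These peaks covered 1932 and 1890 bases in CFL1 knockout cells, 2087 and 2329 in METTL3 knockout cells, and 2859 and 3251 in control. By bases covered, both knockouts thus lay below control in LIMK2. With folds of at least 4 only, or a −log10 q of at least 5 only, the METTL3 knockout mean was 0.5 above control. Site 11 (chr22:31674172-31675767), 1.33 kb from the gene end, was the strongest. Its fold was 11.0 and 14.9 in CFL1 knockout cells, 12.5 and 17.2 in METTL3 knockout cells, and 13.4 and 18.8 in control 1 and 2, so the groups overlapped. Its −log10 q was 98.6 and 152 in CFL1 knockout cells, 80.8 and 82.0 in METTL3 knockout cells, and 127 and 213 in control, so by this measure the METTL3 knockout lay below control and the CFL1 knockout overlapped it. Site 10 (chr22:31672639-31673435), 3.03 kb from the end, had a fold of 6.42 and 4.18 in CFL1 knockout cells, 8.86 and 14.6 in METTL3 knockout cells, and 9.39 and 12.3 in control. There both CFL1 knockout libraries lay below both control libraries in fold but not in −log10 q, as the folds did at 26.6% of all sites called in all 6 libraries. Sites 4 (chr22:31616646-31617055) and 5 (chr22:31618076-31618645) were called in both control libraries only and reached a −log10 q of 9.56 and 13.9.

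Among the slingshot phosphatases, SSH1 had peaks near the gene end in all 6 libraries. Its wide site 3 differed between knockouts and control in where the strongest summit lay. SSH1 encodes a phosphatase that removes the inhibitory phosphate from cofilin. It had 6 and 5 peaks in CFL1 knockout 3 and 5, 6 and 5 in METTL3 knockout 3 and 5, and 7 in each control library. These peaks covered 4237 and 4425 bases in CFL1 knockout cells, 4219 and 4037 in METTL3 knockout cells, and 3769 and 3492 in control. By bases covered, both knockouts thus lay above control in SSH1, while they lay below it in DSTN, LIMK1, LIMK2 and SSH2. With folds of at least 4 only, both knockouts had more SSH1 peaks than control on average, by 1.5 in CFL1 knockout cells and 0.5 in METTL3 knockout cells. With a −log10 q of at least 10 only, CFL1 knockout cells had 1.0 more. Called in all 6 libraries were sites 1, 3 and 4, at 0.99, 4.76 and 9.84 kb from the gene end by their strongest summits.

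At site 3 (chr12:109180533-109183150), CFL1 knockout 5 and both METTL3 knockout libraries called 1 peak of 2491 to 2524 bases, and CFL1 knockout 3 and both control libraries called 2 peaks each. The summit of the strongest peak lay 6214 and 6282 bases from the gene end in CFL1 knockout 3 and 5. It lay at 6152 and 6151 bases in METTL3 knockout 3 and 5, and at 4755 and 4758 bases in control 1 and 2. The smallest gap between a knockout and a control summit was 1393 bases, towards the gene start in all 4 knockout libraries. Of the 18877 sites called in all 6 libraries, 1.84% had all 4 knockout summits more than 1000 bases to one side of both control summits. In control the second peak of the site lay over the part where the knockout summits fell, with a −log10 q of 24.8 and 31.7, against 108 and 200 for the first. The fold at the strongest peak was 4.03 and 7.82 in CFL1 knockout cells, 2.89 and 3.89 in METTL3 knockout cells, and 4.61 and 6.55 in control.

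**Figure D3:**
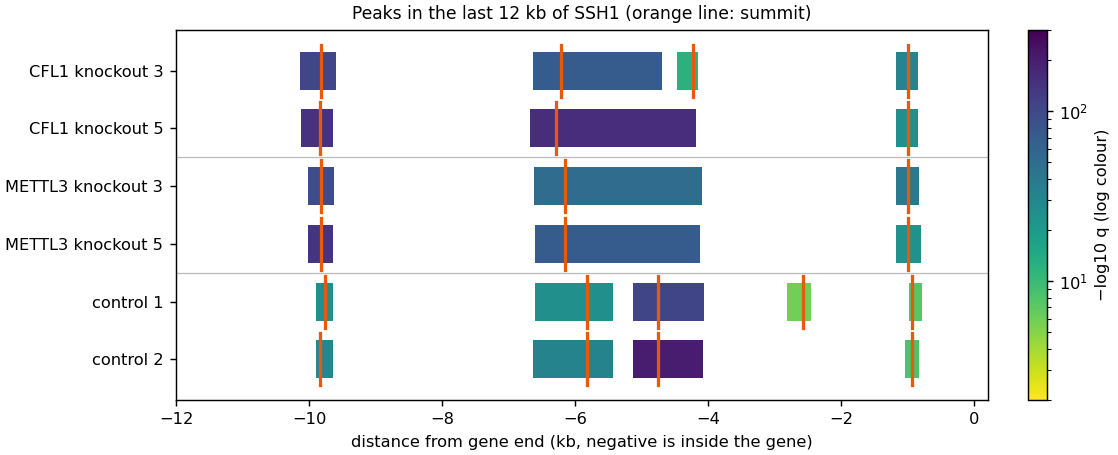
Peaks in the last 12 kb of SSH1 in each library (rows), by distance from the gene end in kb. Boxes are called peaks, coloured by −log10 q on a log scale, and orange lines are summits. In the wide site around −5 kb, the strongest summit lies at 6151 to 6282 bases from the gene end in the knockout libraries, against 4755 and 4758 in control.

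SSH1 sites 1 and 4 had a higher fold in every knockout library than in control. At site 1 (chr12:109177253-109177641) the fold was 5.66 and 3.67 in CFL1 knockout cells, 5.05 and 3.64 in METTL3 knockout cells, and 2.03 and 1.89 in control 1 and 2. At site 4 (chr12:109186067-109186605) it was 3.94 and 4.74 in CFL1 knockout cells, 4.23 and 5.54 in METTL3 knockout cells, and 3.77 and 3.68 in control, a smaller gap. The −log10 q at site 4 was 105 and 146, 95.2 and 138, and 25.0 and 29.5, in the same order of groups. Site 10 (chr12:109243955-109244981), 6.97 kb from the gene start, was called in the 4 knockout libraries alone. Its fold was 8.34 and 8.72 in CFL1 knockout cells, and 2.87 and 3.88 in METTL3 knockout cells, where its −log10 q was only 2.14 and 5.96.

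SSH2, the second slingshot phosphatase and the longest of the genes at 304300 bases, carried many weak peaks along its body in control that were missing in both knockouts. It had 14 and 7 peaks in CFL1 knockout 3 and 5, 10 in each METTL3 knockout library, and 42 and 35 in control 1 and 2. Within 15 kb of the gene end the groups overlapped, with 4 and 2 peaks in CFL1 knockout cells, 3 in each METTL3 knockout library, and 4 and 3 in control. Farther inside there were 10 and 5 in CFL1 knockout cells, 7 and 7 in METTL3 knockout cells, and 38 and 32 in control. The control peaks farther inside had a median −log10 q of 4.11 and 4.31, against 91.4 and 148 within 15 kb of the end. The distance of 15 kb was set after the peaks had been seen. With a −log10 q of at least 10 only, the mean of each knockout minus that of control was -3.0 peaks, against -28.0 for CFL1 and -28.5 for METTL3 knockout cells over all peaks. Of the 68 sites of SSH2, 15 were called in knockouts only, 47 in control only and 6 in both. Over all sites the shares were 45.6%, 32.6% and 21.8% in the same order. Of the 47 in control only, 28 were called in 1 control library and 19 in both control libraries. The 100 kb past the gene end held 19 and 17 peaks in CFL1 knockout cells, 14 and 17 in METTL3 knockout cells, and 17 and 19 in control, so the groups met or overlapped there.

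The strong sites at the end of SSH2 were called in all 6 libraries. Site 4 (chr17:27957670-27960111) had a fold of 19.3 and 11.3 in CFL1 knockout cells, 13.6 and 19.0 in METTL3 knockout cells, and 9.23 and 11.6 in control. Site 5 (chr17:27963020-27963950) had a fold of 5.64 and 6.53 in CFL1 knockout cells, 11.6 and 13.9 in METTL3 knockout cells, and 18.1 and 11.1 in control. By fold the METTL3 knockout lay above control at site 4 and the CFL1 knockout below it at site 5, and the other knockout overlapped control at each. By −log10 q, site 4 had 262 and 238 in CFL1 knockout cells, 213 and 197 in METTL3 knockout cells, and 161 and 233 in control, so there the CFL1 knockout lay above control. Site 5 had a −log10 q of 69.2 and 99.1, 105 and 106, and 157 and 148 in the same order, so both knockouts lay below control. Site 67 (chr17:28253117-28253818), 3.78 kb from the gene start, was called in both control libraries only, with a −log10 q of 20.3 and 26.3.

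**Figure D4:**
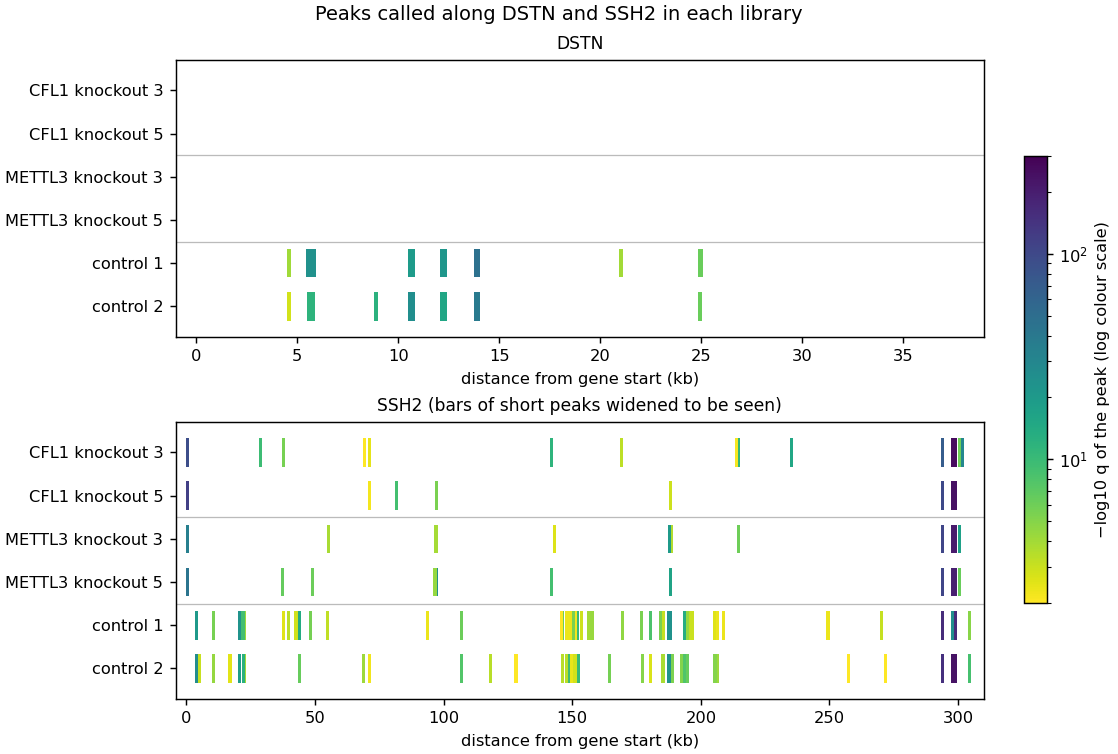
Peaks along DSTN (top) and SSH2 (bottom) in each library, by distance from the gene start in kb, coloured by −log10 q on a log scale. DSTN has no peak in the knockouts and 7 in each control library. In SSH2 sites 4 and 5, the darkest bars at the right, are shared by all 6 libraries, the peak at the start is in the 4 knockout libraries, and those between are mostly in control.

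The start of SSH2 carried a peak in every knockout library and in no control library. Site 68 (chr17:28256910-28257308) had a −log10 q of 91.9 and 116 in CFL1 knockout 3 and 5 and of 35.1 and 43.9 in METTL3 knockout 3 and 5. Its fold was 5.61 and 6.69, and 5.30 and 6.85, in the same order. The strongest summit lay 118 bases inside the gene. The gene EFCAB5 overlaps the start of SSH2 in the RefSeq annotation of GRCh38, and the lists give no strand, so RNA of the 2 genes cannot be told apart there. In LIMK2, CFL1 knockout 3 alone called a weak peak over the gene start (site 1, chr22:31608114-31608324, −log10 q 3.85). The sequences around both starts are shown because a peak lay over the start itself. For SSH2, most of the bases before the start lie outside the peaks. The LIMK2 peak spanned 136 bases before the start of the hg19 interval and 75 from it on. Both sequences are from RefSeq (GRCh38.p14). The 250 bases before the annotated start are in lower case and the 50 bases from the start on in capitals. The SSH2 window lies at chr17:29930179-29930478 (minus strand) and the LIMK2 window at chr22:31212048-31212347 (plus strand).
SSH2: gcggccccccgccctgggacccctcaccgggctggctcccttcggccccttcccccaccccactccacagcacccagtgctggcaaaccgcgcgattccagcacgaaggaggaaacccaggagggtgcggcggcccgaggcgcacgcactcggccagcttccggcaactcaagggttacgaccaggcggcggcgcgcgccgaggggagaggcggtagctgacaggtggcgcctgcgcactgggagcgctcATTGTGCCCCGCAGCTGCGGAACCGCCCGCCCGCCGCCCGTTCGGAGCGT
LIMK2: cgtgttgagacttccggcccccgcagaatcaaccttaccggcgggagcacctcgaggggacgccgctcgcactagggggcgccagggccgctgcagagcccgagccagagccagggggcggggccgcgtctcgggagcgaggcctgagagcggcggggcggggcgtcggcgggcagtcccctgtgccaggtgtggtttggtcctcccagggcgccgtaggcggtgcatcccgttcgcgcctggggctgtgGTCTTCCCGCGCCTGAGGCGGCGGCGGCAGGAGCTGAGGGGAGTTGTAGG
The letters GGAC, the core of the motif at which m6A is most often written, occurred 1 time on the gene strand and 0 times on the other strand of the SSH2 window. In the LIMK2 window they occurred 1 time on the gene strand and 2 times on the other. None of these lay in the 50 bases from the start on. At least 1 match on either strand was found in 87.4% of all 35116 such windows in the table. In hg19 the knockout peaks of SSH2 ran from 12 to 53 bases before the interval's start to 273 to 346 bases inside it. Most of each peak, with the strongest summit at 118 bases, thus lay beyond the 50 bases shown and was not searched for GGAC.

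Neither actin gene had a peak in the CFL1 knockout. ACTB and ACTG1 encode the cytoplasmic beta and gamma actins, the filament proteins that cofilin cuts. Both genes, like CFL1, have near-identical copies elsewhere in the genome, and how reads that match several places were treated is not given in the labels, so their peaks are uncertain. ACTB had no peak in either CFL1 knockout library, 2 and 4 in METTL3 knockout 3 and 5, and 1 in each control library. Site 1 (chr7:5567025-5567580) was called in both METTL3 knockout and both control libraries and in no CFL1 knockout library, a pattern of 0.594% of all sites. Its fold was low throughout, at 1.54 and 1.83 in METTL3 knockout 3 and 5 and 1.32 and 1.61 in control 1 and 2. The −log10 q was 27.6 and 45.5 in the METTL3 knockout and 10.4 and 40.1 in control, so these groups overlapped. Site 3 (chr7:5568946-5569465) was called in both METTL3 knockout libraries only, with folds of 1.20 and 1.62.

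ACTG1 had no peak in either CFL1 knockout library, 0 and 2 in METTL3 knockout 3 and 5, and 1 in each control library. Site 1 (chr17:79477328-79477979) had a fold of 1.60 in METTL3 knockout 5, against 1.37 and 1.68 in control 1 and 2. Site 2 (chr17:79478438-79478651) was called in METTL3 knockout 5 only, with a fold of 2.15. With folds of at least 4 only, neither actin gene had a peak in any library. The flanks of the actin genes went both ways. The 100 kb past the end of ACTG1 held 41 and 36 peaks in CFL1 knockout 3 and 5, 19 and 18 in METTL3 knockout 3 and 5, and 11 and 13 in control 1 and 2, so all knockout libraries lay above control. The 100 kb before its start held 20 and 16, 18 and 17, and 27 and 27 in the same order, so all knockout libraries lay below control. Beside ACTB, the 100 kb at lower coordinates held 25 and 21 peaks in CFL1 knockout cells, 19 in each METTL3 knockout library, and 34 and 35 in control. At higher coordinates there were 11 and 6, 6 and 7, and 11 and 14 in the same order, where the CFL1 knockout overlapped control and the METTL3 knockout lay below it. Such splits were also seen beside other genes. Beside LIMK2, lower coordinates held 6 and 6, 6 and 4, and 10 and 9, and higher ones 13 and 14, 13 and 14, and 10 and 10. At lower coordinates beside CFL1 and LIMK1, all knockout libraries lay above control. No share of such splits over all 100-kb stretches was counted, so the flanks have no background.

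At the 8 sites called in all 6 libraries, enrichment did not move one way. Both CFL1 knockout libraries had a higher fold than both control libraries at 2 sites (SSH1 sites 1 and 4) and a lower one at 2 (LIMK2 site 10 and SSH2 site 5). Over all 18877 such sites the shares were 33.8% higher and 26.6% lower. Both METTL3 knockout libraries had a higher fold at 4 sites (LIMK1 site 10, SSH1 sites 1 and 4, and SSH2 site 4) and a lower one at 1 (SSH1 site 3), against 43.3% and 20.0% of all such sites. By −log10 q the CFL1 knockout was higher at 3 sites (SSH1 sites 1 and 4 and SSH2 site 4) and lower at 1 (SSH2 site 5), against 35.3% and 31.5% of all such sites. The METTL3 knockout was higher at 2 (SSH1 sites 1 and 4) and lower at 3 (LIMK2 site 11, SSH1 site 3 and SSH2 site 5), against 42.8% and 27.8%. The balance for the METTL3 knockout thus depends on the measure, and with 8 sites none of these counts is far from its share. The strongest summits of the 8 sites lay 0.99 to 10.5 kb from the gene end.

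**Figure D5:**
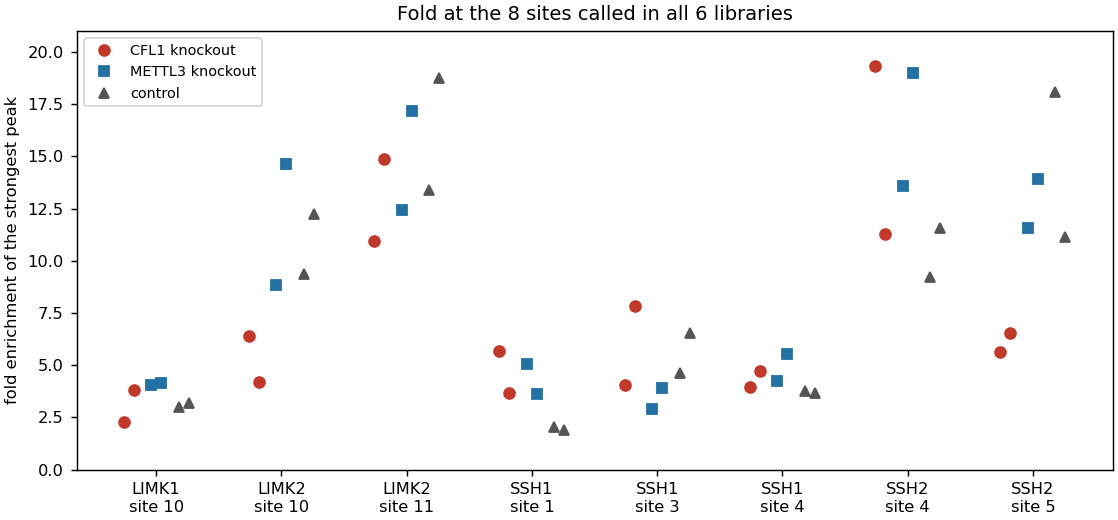
Fold enrichment of the strongest peak (vertical axis, ratio) at each of the 8 sites called in all 6 libraries, one point per library. SSH1 sites 1 and 4 lie higher in all 4 knockout libraries than in control, and SSH2 site 5 lies lower in the CFL1 knockout, at 5.64 and 6.53 against 18.1 and 11.1 in control.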

How the data were processed

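Antibody and input samples of total RNA from PANC-1 cells stand behind 3 peak lists. Per the submitters' processing notes, the build was hg19 and the tools included STAR, a read aligner, MACS2, a peak caller, and bedtools. Their versions, their settings and the role of the input in calling are not stated. The deposited values used were each peak's interval, its summit, its fold (a ratio) and its −log10 q. Each list joins peaks of 2 libraries called separately, as the peak names show.

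Peaks were assigned to a gene by an overlap of at least 1 base with its interval (Python 3.11.15, NumPy 2.4.6). Peaks of 2 lists that had at least 1 base in common counted as shared, after lines with the same interval had been collapsed to the strongest. No peak was filtered out, and all 9 genes were kept. Sites join peaks of all libraries where they overlap. Gene strand came from the RefSeq promoter table, which holds 8 of the 9 genes, and for ACTB from its known minus strand. Peak numbers were compared by exact two-sided permutation of libraries. Joining and overlap were tested on simulated data.

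Named sites were up to 4 per gene, by −log10 q, among the strongest site and those called in all 6 libraries, in control only, in all knockout libraries only, or in control and 1 knockout. CFL1 site 1, LIMK2 site 1, ACTB site 3 and ACTG1 site 2, the windows, the flanks, the summit distance and the values without SSH2 were chosen after their values were seen. The genes and rules were chosen with earlier results of these data known. Other genes of the pathway were not analysed here, since the annotation at hand is of GRCh38. Gene bounds also differ between annotations. The GRCh38 length minus the hg19 length was 4492 bases for SSH1, 1791 for DSTN, 1039 for CFL2 and -1553 for CFL1, and smaller in size for the other genes. Distances from gene ends, such as those in SSH1, rest on the hg19 intervals alone.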

Additional observations from a re-analysis of the deposited data

Results flagged for a closer look

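ACTB was the 1 gene in which both libraries of the CFL1 knockout lay on one side of both control libraries in peak number and both libraries of the METTL3 knockout on the other. It had 0 peaks in each CFL1 knockout library, 2 and 4 in METTL3 knockout 3 and 5, and 1 in each control library. The CFL1 knockout mean minus the METTL3 knockout mean was -3.0 peaks per library. This difference was not tested. All ACTB folds were low, from 1.20 to 1.83, and no ACTB peak was left with folds of at least 4. For scale, 21.1% of 50-kb windows lay below control in the CFL1 knockout, and 19.9% lay above it in the METTL3 knockout. Windows that did both were not counted, so the pattern has no like-for-like background.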

How the results depend on the processing

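The values without SSH2, with intervals extended by 2 kb, of sites under limits of strength, and all those of single genes were added as alternatives after seeing the data, and the others were not. No paired analysis was possible because libraries 3 and 5 of the knockouts cannot be matched to replicates in the labels. Peak number in the 9 genes relative to control stayed below 1 in both knockouts in every alternative run. Over all peaks it was below 1 without a limit, but at a −log10 q of 10 and above both knockouts listed more peaks than control (70045 and 66730 against 65533). In the 9 genes, with peaks limited to a −log10 q of 5 and above, the ratio was 0.507 in the CFL1 and 0.592 in the METTL3 knockout. With a limit of 10 it was 0.605 and 0.721. Without SSH2 it was 0.463 and 0.648. Leaving out each library in turn gave 0.290 to 0.412 and 0.382 to 0.458. The shares of control peaks without a CFL1 knockout and a METTL3 knockout peak were 67.6% and 60.6% with the limit of 5, 55.8% and 46.5% with the limit of 10, 77.0% and 75.4% with folds of 4 and above, 83.3% and 82.1% after merging within 100 bp, and 66.7% and 63.0% without SSH2. With sharing at 50% of the shorter peak the METTL3 share was 79.4%. The range without 1 library was 78.7% to 81.7% and 77.0% to 80.2%. The shares of CFL1 knockout and METTL3 knockout peaks without a control peak were 34.6% and 32.3% with the limit of 10 and 59.4% and 59.0% after merging, and without 1 library 42.1% to 52.2% and 48.0% to 56.7%. For the CFL1 knockout it was 36.0% without SSH2, and for the METTL3 knockout 44.4% with folds of 4 and above. Sites called in both control libraries and no knockout library numbered 12 with the limit of 5, 7 with that of 10 and 11 with the fold limit, and sites of all 6 libraries numbered 4 with the fold limit. Of 180 values for single genes, 5 turned sign. In SSH1 the CFL1 knockout minus control was 1.0 peaks with the limit of 10 and 1.5 with the fold limit, and the METTL3 knockout minus control 0.5 with the fold limit. In LIMK2 the METTL3 knockout minus control was 0.5 with the limit of 5 and with the fold limit. Apart from thresholds and merging, which change the peaks counted by construction, the cause was not tested. Read depth is unknown, so how far below the caller's threshold a missing peak lay is unknown too.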

Other observations

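Many peaks carried exactly the same pair of fold and −log10 q as other peaks of their library. In the 9 genes this held for 17 of 27 and 11 of 19 peaks in CFL1 knockout 3 and 5, 16 of 25 and 15 of 30 in METTL3 knockout 3 and 5, and 55 of 70 and 46 of 61 in control 1 and 2. Over all peaks of a library the share was 70.8% to 76.1%. In control 1, the pair of fold 4.20 and −log10 q 3.11 stood at 2 peaks in LIMK1, at 1 in SSH2 and at 1115 peaks in all. The lists hold no read counts, so how many reads stand behind such a pair was not examined here.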
